A study of Mus musculus with 6 samples.

Results

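The lysosome is the acidic compartment in which cells break down proteins, lipids and sugars. Cathepsins and other hydrolases work in its lumen, glycoproteins such as LAMP1 and LAMP2 line its membrane, and a proton pump, the V-ATPase, keeps it acidic. Autophagy wraps cytoplasm in a membrane sac and delivers it to the lysosome, with ATG12 and the LC3 and GABARAP proteins building the sac. In bone, cathepsin K, made mostly by osteoclasts, degrades collagen, and osteoblasts use lysosomes and autophagy while they secrete matrix. The 37 genes described here were chosen by name for these roles, but with earlier results of these data known. The shares of called genes given below do not account for that choice. The genes are 9 cathepsins and the related protease legumain, 5 membrane proteins, and 7 lumenal hydrolases and cofactors. The others are 2 V-ATPase subunits, the regulator Tfeb and 12 autophagy genes. All 37 were found among the 57180 gene rows of the count table.

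The cells were grown out of mouse calvaria, the bone of the skull vault, and driven towards bone formation in a MEM alpha medium that held serum, ascorbate and β-glycerophosphate for both groups. The 3 wt libraries came from C57BL/6 cells. The 3 gld libraries, titled FasL KO, came from cells of B6Smn.C3-Faslgld/J mice, which are homozygous for gld, a mutation of Fasl (Fas ligand) carried in every cell. The sampling day and the age, sex and number of mice were not in the labels used here, and nothing says whether libraries of a group came from separate mice or cultures. So p-values reflect how far libraries of a group differ, and that spread may be technical. The protocol also describes gld cells treated with Fas ligand, but none of the 6 libraries names that treatment in its title.

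Library totals ran from 2011173 to 3105322 counts in wt and from 4048258 to 5245546 in gld, without overlap. Depth and mouse strain both differ between the groups, so their parts cannot be told apart from that of the Fasl mutation. Fasl was listed at 0 in all 6 libraries, so its level checks neither label. Of 15 osteoblast markers, Col1a1, Col1a2, Cdh11 and Alpl were well counted. Bglap, Spp1 and Sp7 had 1, 4 and 20 counts in all, and Dlx5 and Phospho1 were at 0. Bglap, Spp1, Sp7 and Dlx5 have a 3′ end shared between transcripts, where a low count or 0 says little about the transcript. The end of Phospho1 overlaps Zfp652 and Abi3. The summed osteoblast list, mostly collagen, averaged 19750 CPM (each count scaled to library size after TMM normalization) for wt (SD 4258) and 65560 CPM for gld (SD 3779). Of its 6 tested genes 4 were higher in gld, Col1a1, Col1a2, Cdh11 and Ibsp. Ibsp had 3 counts over the wt libraries and 97 over the gld libraries. Alpl, the alkaline phosphatase of osteoblasts, was 4.6-fold lower (adjusted p = 7.97e-07 in edgeR). The summed list of 10 fibroblast markers averaged 7167 CPM for wt (SD 1068) and 16970 CPM for gld (SD 174), with 4 of 9 tested genes higher and 3 lower. The part of these markers in the differences described here was not tested. The gld libraries also held macrophage transcripts. Of 27 macrophage markers 13 could be tested, and 12 were higher in gld, while Cd14 was lower. Their summed level ran from 256 to 439 CPM in wt and was 2658, 4029 and 7231 CPM in gld 1, gld 2 and gld 3. Csf1r, Adgre1, Tyrobp, Fcer1g, Cd163, Cx3cr1, Aif1 and Spi1 were listed at 0 in all libraries. Except for Csf1r and Spi1, these have a shared 3′ end, where a 0 says nothing about the transcript. The end of Csf1r overlaps Hmgxb3 on the other strand. How reads were counted was not given, so the 0 of Csf1r does not show that no reads came from it.

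The genes that rose in gld were lysosomal proteases, membrane proteins and a hydrolase, and those that fell were autophagy genes. Of the 37 genes 19 had enough counts to be tested. Of these 8 rose in gld (Ctsb, Ctsc, Ctsk, Ctsz, Lamp1, Lamp2, Laptm4a and Hexa), 2 fell (Gabarapl1 and Atg12) and 9 missed the threshold, which was 0.05 on the adjusted p from the quasi-likelihood test of edgeR. The background over all 8692 tested genes was 9.74% higher and 7.69% lower, or 17.4% in either direction. Called shares rise with depth: among the 2996 tested genes with at least 1000 counts over the 6 libraries, 15.2% were higher and 14.4% lower. That class holds 16 of the 19 genes, with the same 8 higher and 2 lower. In 9 of the 19 every gld library lay above every wt library, against 18% of all tested genes, and in 3 every gld library lay below, against 15.2%. The median log2 fold change was −0.07 over the 19 genes and 0.02 over all tested genes, and the first turned to 0.42 with limma-voom, so it gives no direction. By role it was 0.52 for the 5 tested cathepsins, 0.52 for the 3 membrane proteins and −0.47 for the 7 autophagy genes. Because bulk RNA was measured, more cells of a type and more RNA per cell cannot be told apart.

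**Figure D1:**
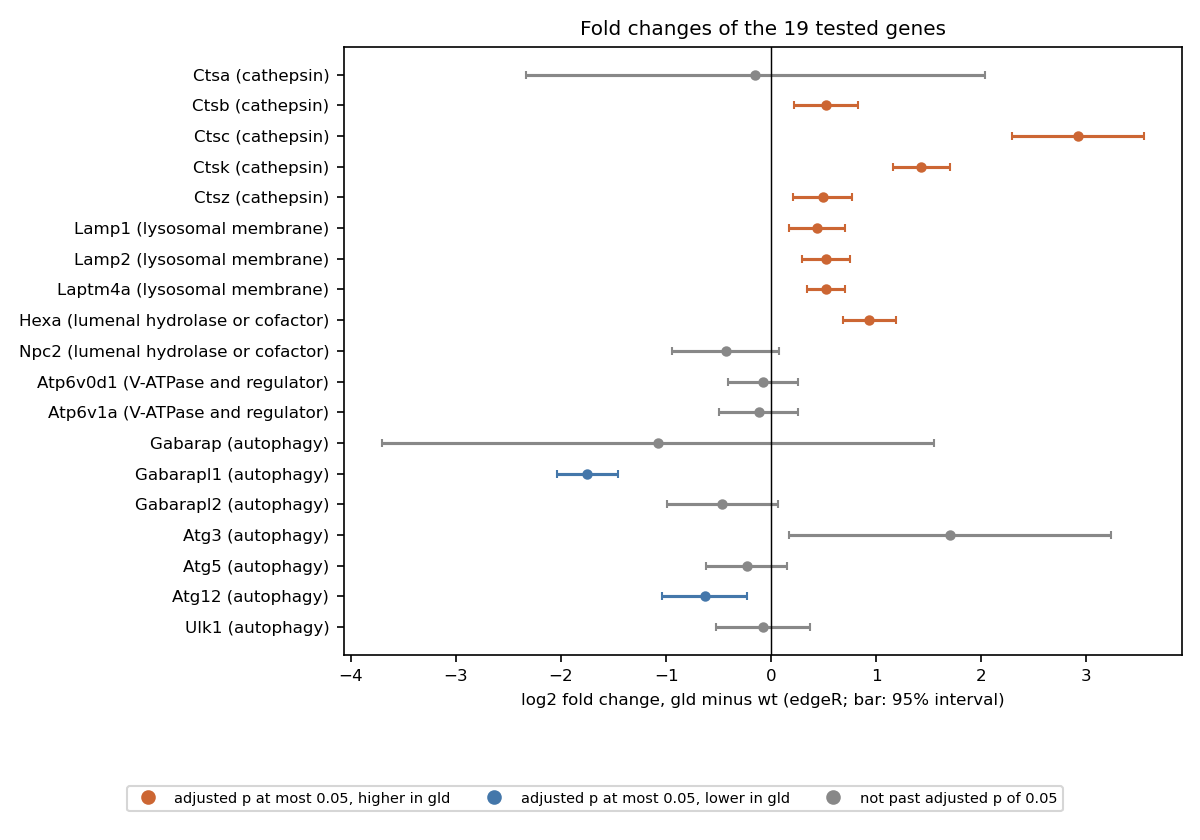
Log2 fold change (gld minus wt, horizontal axis) with its 95% interval for each of the 19 tested genes, grouped by role. The cathepsins other than Ctsa, the membrane proteins and Hexa lie to the right of 0, V-ATPase genes near 0, and Gabarapl1 at −1.75 is the lowest.

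How many counts a gene held went with the annotation of its 3′ end, where the reads of this library type fall. In 20 genes at least 99% of the final 300 bases of exon belong to only 1 annotated transcript of that gene. Overlap with other genes was not part of this split. The median of these 20 genes was 2109 counts over the 6 libraries. In the other 17 the end is shared between transcripts of the gene, and their median was 4 counts. Of the single-end genes 17 could be tested, and of the shared-end genes 2, Atp6v1a and Gabarap. Over all protein-coding genes 43.9% of those with a single end and 14.5% of those with a shared end were tested. Well known lysosomal genes are among those not measured: Ctsd (cathepsin D), Psap (the precursor of the saposins), Grn (progranulin), Lipa (lysosomal acid lipase), Tfeb, Map1lc3a and Atg7 were listed at 0 in all libraries, and each has a shared end. By counting error alone a count of 0 in all 6 libraries allows up to 0.138 CPM, but here it says nothing about the transcript. The remaining 11 untested genes held 2 to 47 counts in sum. They were Lgmn, Cd63, Ctsf, Glb1, Map1lc3b, Becn1, Sqstm1, Gusb, Ctsh, Npc1 and Ctsl. Sqstm1, the autophagy receptor p62, had 11 counts, all in wt 3, and Becn1 had 10, all in gld 1.

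**Figure D2:**
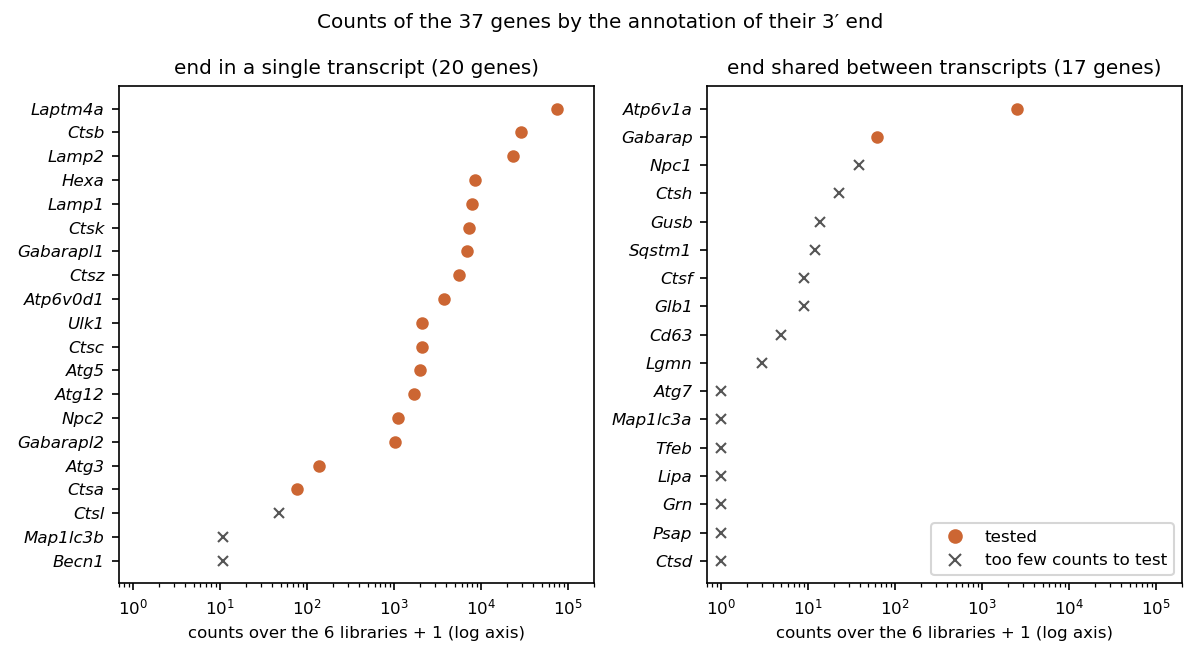
Counts over the 6 libraries plus 1 (log axis) for each of the 37 genes. The split is by whether the 3′ end lies in a single transcript of the gene or is shared between its transcripts. Tested genes are circles, and 15 of the 17 genes with a shared end are crosses, with too few counts to test.

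Promoters of 31 of the 37 genes were in the RefSeq table (GRCm38.p6), and the 250 bases before the start were searched for CACGTG, and for the longer TCACGTGA that contains it, the letters at the core of the element bound by TFEB and related factors. Each reads the same on both strands. CACGTG was in 11 of the 31 genes, against 6.86% of 27025 genes, and TCACGTGA in 4, against 0.907%. Of the 7 genes with an entry that rose, 1 held CACGTG, Lamp1, and none held TCACGTGA. The 1 gene with an entry that fell, Gabarapl1, held neither. The longer letters were in Atg3, Atp6v1a, Ctsa and Ctsd, none of which was called. A match is a description of letters, not a bound site. The windows printed here show Lamp1 with its 4 copies, Ctsk and Gabarapl1 as strongly changed genes without a match, and Atp6v1a as a gene with the longer letters that did not pass. Matches are in capitals and each window reads 5′ to 3′ on the gene's strand. They lie at chr8:13158911-13159160 (plus), chr3:95498960-95499209 (plus), chr6:129532942-129533191 (plus) and chr16:44139260-44139509 (minus).
Lamp1: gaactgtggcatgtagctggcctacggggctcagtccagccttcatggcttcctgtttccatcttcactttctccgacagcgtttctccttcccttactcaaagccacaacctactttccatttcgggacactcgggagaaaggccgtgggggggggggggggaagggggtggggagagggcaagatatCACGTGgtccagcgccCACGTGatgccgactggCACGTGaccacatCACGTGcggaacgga
Ctsk: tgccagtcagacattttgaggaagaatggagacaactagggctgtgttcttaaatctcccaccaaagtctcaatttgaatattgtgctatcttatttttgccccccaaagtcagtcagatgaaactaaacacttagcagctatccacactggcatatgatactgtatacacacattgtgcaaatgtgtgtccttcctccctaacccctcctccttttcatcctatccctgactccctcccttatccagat
Gabarapl1: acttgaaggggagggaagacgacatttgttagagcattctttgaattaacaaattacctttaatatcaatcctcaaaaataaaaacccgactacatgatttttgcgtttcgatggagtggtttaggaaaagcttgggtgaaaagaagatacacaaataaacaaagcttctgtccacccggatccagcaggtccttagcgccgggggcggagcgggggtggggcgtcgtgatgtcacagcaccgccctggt
Atp6v1a: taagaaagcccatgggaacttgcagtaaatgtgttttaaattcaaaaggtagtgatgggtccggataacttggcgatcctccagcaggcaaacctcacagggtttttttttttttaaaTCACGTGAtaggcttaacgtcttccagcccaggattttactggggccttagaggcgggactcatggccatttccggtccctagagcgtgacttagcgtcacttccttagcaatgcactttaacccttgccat

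Cathepsin C showed the largest change. Ctsc (ENSMUSG00000030560, GRCm38 chromosome 7, 88278085 to 88310888, plus strand) encodes dipeptidyl peptidase I, which activates the serine proteases of immune cell granules. It stood at 18.3, 22.5 and 17.5 CPM in wt and at 109.5, 113 and 220.3 CPM in gld. Every gld library lay far above wt, and gld 3 stood well above the other gld libraries. Ctsc rose by 2.92 ± 0.29 (SE) on the log2 scale, or 7.57-fold, with an edgeR adjusted p = 4.65e-06. Without gld 3 the Ctsc log2 fold change was 2.49 (adjusted p = 1.625e-05).

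Cathepsin K, the collagenolytic protease of bone, rose with a different spread. Ctsk (ENSMUSG00000028111, chromosome 3, 95499256 to 95509362, plus strand) stood at 164.5, 182 and 169.5 CPM in wt and at 494, 481.5 and 416 CPM in gld. Here gld 3 was the lowest of the gld libraries. The log2 fold change was 1.43 ± 0.13 (SE), or 2.69-fold, with an edgeR adjusted p = 1.53e-06. Of 12 other osteoclast markers, Acp5, Oscar, Calcr, Dcstamp, Nfatc1 and Ckb were at 0 in every library. Each of these has a shared 3′ end, where a 0 says nothing about the transcript. The summed level of the list was 54.0 to 97.7 CPM in wt and 13.2 to 33.5 CPM in gld. Itgb3 held most of that sum in wt and was lower in gld. Atp6v0d2 and Tcirg1, subunits of the osteoclast proton pump too thin to test, had 1 and 5 counts over the wt libraries and 56 and 48 over the gld libraries, and Tnfrsf11a, the receptor RANK, had 2, 8 and 0 counts in wt libraries and 27, 21 and 45 in gld ones (edgeR adjusted p = 0.129), so the list did not move in 1 direction. The part of osteoclasts in the level of Ctsk was not tested.

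Cathepsins B and Z rose by less. Ctsb (ENSMUSG00000021939, chromosome 14, 63122462 to 63145923, plus strand), a broad lysosomal protease, stood at 1072, 990.2 and 1146 CPM in wt and at 1238, 1457 and 1914 CPM in gld. Its groups did not overlap, but gld 1 lay close to wt and gld 3 apart from it. The log2 fold change was 0.52 ± 0.14 (SE; edgeR adjusted p = 0.0172), and without gld 3 it was 0.31 and no longer past the threshold (adjusted p = 0.127), nor was it without wt 1 (0.0541) or wt 2 (0.051). Ctsz (ENSMUSG00000016256, chromosome 2, 174427493 to 174439039, minus strand), a carboxypeptidase, stood at 229, 203 and 213 CPM in wt and at 276, 299 and 330.5 CPM in gld. Its groups lay apart as well. It rose by 0.49 ± 0.13 (SE; edgeR adjusted p = 0.0159), and the call was lost without wt 3 (0.0667), gld 2 (0.0675) or gld 3 (0.085). Ctsa (cathepsin A, which protects other lysosomal enzymes), with 2 to 26 counts a library, had a log2 fold change of −0.15 with a 95% interval from −2.34 to 2.03, too wide for a direction.

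All 3 tested membrane proteins rose, by 0.44 to 0.53 on the log2 scale. Laptm4a (ENSMUSG00000020585, chromosome 12, 8921664 to 8938742, plus strand), a lysosomal transmembrane protein, stood at 2775, 2933 and 2637 CPM in wt and at 3970, 4003 and 4037 CPM in gld. The 3 gld libraries lay within a narrow band well above wt. The log2 fold change was 0.53 ± 0.08 (SE), or 1.44-fold, with an edgeR adjusted p = 0.000402. Lamp2 (ENSMUSG00000016534, chromosome X, 38401357 to 38456454, minus strand), a main glycoprotein of the lysosomal membrane that also serves chaperone-mediated autophagy, stood at 803, 949 and 864 CPM in wt and at 1178, 1335 and 1244 CPM in gld. Its groups did not overlap, and it rose by 0.52 ± 0.11 (SE; edgeR adjusted p = 0.00269). Lamp1 (ENSMUSG00000031447, chromosome 8, 13159161 to 13175338, plus strand), the other main glycoprotein of that membrane, stood at 320, 278 and 329 CPM in wt and at 391, 449 and 414 CPM in gld. It rose by 0.44 ± 0.12 (SE; edgeR adjusted p = 0.0238), but with any 1 of the 6 libraries left out its adjusted p was between 0.05001 and 0.158, past the threshold in none.

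Among lumenal proteins 1 rose. Hexa (ENSMUSG00000025232, chromosome 9, 59539540 to 59565109, plus strand) encodes the alpha subunit of β-hexosaminidase, which cleaves terminal sugars from gangliosides. It stood at 265, 261 and 265 CPM in wt and at 461.5, 522 and 527 CPM in gld. The wt libraries were nearly level and every gld library lay far above them. It rose by 0.93 ± 0.12 (SE), or 1.91-fold, with an edgeR adjusted p = 4.29e-05. Npc2, the cholesterol carrier of the lumen, stood at 55.9, 65.1 and 62.9 CPM in wt and at 34.4, 46.4 and 55.6 CPM in gld. These groups did not overlap, narrowly, but the log2 fold change of −0.43 (95% interval −0.94 to 0.08) did not pass (edgeR adjusted p = 0.270).

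**Figure D3:**
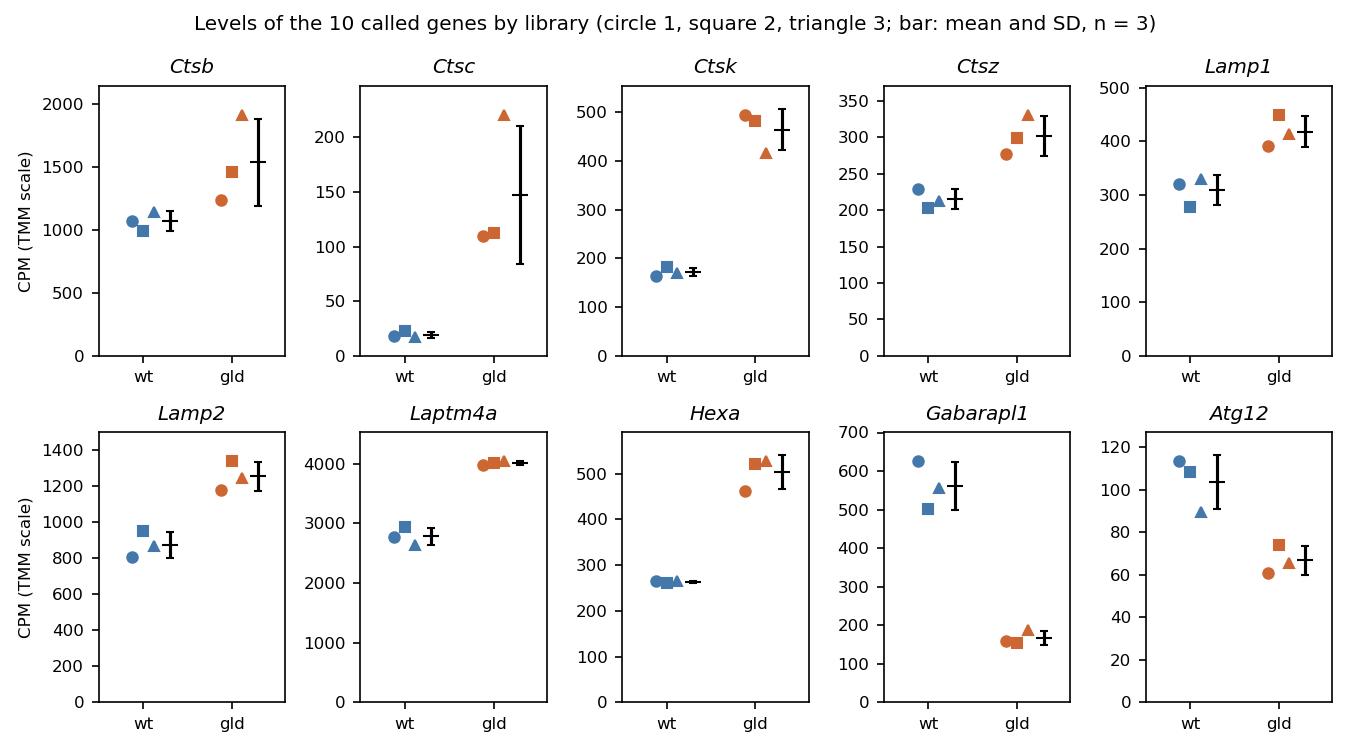
CPM on the TMM scale in each library (wt blue, gld orange) for the 10 genes that passed, with mean and SD. Ctsc and Ctsb are spread in gld with gld 3 highest, while Laptm4a and Ctsk are tight, and Gabarapl1 and Atg12 lie lower in gld.

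Neither proton pump gene passed in edgeR, DESeq2 or limma-voom, and neither had an unadjusted p under 0.05 in edgeR. Atp6v0d1, a subunit of the membrane part of the V-ATPase, stood at 155.5, 175 and 211 CPM in wt and at 166, 188 and 160.3 CPM in gld. The groups overlapped, with a log2 fold change of −0.08 and a 95% interval from −0.41 to 0.25. Atp6v1a, the catalytic subunit, stood at 131, 99.9 and 143 CPM in wt and at 111, 123 and 110.4 CPM in gld, and its log2 fold change of −0.12 had an interval from −0.50 to 0.26. Changes as large as those of Ctsk or Ctsc lie outside both intervals.

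Gabarapl1 fell most. Gabarapl1 (ENSMUSG00000030161, chromosome 6, 129533160 to 129542346, plus strand) encodes a GABARAP family protein that is attached to the autophagosome membrane and binds cargo receptors. It stood at 625, 502 and 557 CPM in wt and at 160, 153 and 187 CPM in gld. The lowest wt library was well above the highest gld library. It fell by 1.75 ± 0.14 (SE) on the log2 scale, a 3.36-fold lower level in gld, with an edgeR adjusted p = 3.54e-07. Its relatives gave less: Gabarapl2 stood at 46.1, 67.0 and 60.2 CPM in wt and at 36.7, 51.7 and 37.6 CPM in gld, with overlap and a log2 fold change of −0.47 (95% interval −0.996 to 0.063). Gabarap, with 0 to 20 counts a library, had an interval from −3.70 to 1.55. Whether Gabarapl1 differs from these relatives was not tested, and reads shared with near-identical copies were not examined.

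The conjugation and initiation genes of autophagy were lower or did not pass. Atg12 (ENSMUSG00000032905, chromosome 18, 46730144 to 46741580, minus strand), the ubiquitin-like protein joined to ATG5 to drive lipidation of LC3 and GABARAP proteins, stood at 113, 108 and 89.4 CPM in wt and at 60.6, 74.1 and 65.5 CPM in gld. The groups did not overlap, and it fell by 0.63 ± 0.19 (SE; edgeR adjusted p = 0.0303). It no longer passed when wt 1 (adjusted p = 0.122), wt 2 (0.0857), gld 1 (0.0948) or gld 3 (0.0631) was left out. Its partner gene Atg5 stood at 107, 99.9 and 106 CPM in wt and at 80.1, 104 and 81.5 CPM in gld, with a log2 fold change of −0.23 (95% interval −0.62 to 0.15). Ulk1, the kinase that starts autophagy, overlapped between groups, at −0.07 (−0.52 to 0.37). Atg3, the enzyme that transfers LC3 to its lipid, was thinly counted, with 8, 5 and 10 counts for the wt libraries against 29, 37 and 50 for gld. All gld libraries lay above wt, and the log2 fold change was 1.70 (0.17 to 3.23), but its adjusted p = 0.134 in edgeR did not pass.

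The libraries of gld were compared one by one, because the macrophage markers differed among them. The summed macrophage markers in gld 3 were 2.16 times the mean of gld 1 and gld 2. For Ctsc this ratio was 1.98 and for Ctsb 1.42, and for the other 6 genes that rose it lay between 0.852 and 1.15. Among tested members with at least 1000 counts that did not rise, it ran from 0.850 (Gabarapl2) to 1.38 (Npc2). Without Lyz2 and Cd14, which hold most of the counts, the marker sum reached at most 11.4 CPM among wt libraries and was 805.5, 1018 and 2109 CPM in gld. The macrophage markers were also higher in gld than in wt, as the 8 genes were, and their part in these differences was not tested. With gld 3 left out, Ctsc, Ctsk, Lamp2, Laptm4a and Hexa stayed past the threshold, and Ctsb, Ctsz and Lamp1 did not. The log2 fold change then went from 0.52 to 0.31 for Ctsb and from 0.49 to 0.40 for Ctsz, and for Lamp1 it was nearly as large as before, at 0.42 beside 0.44. The calls of Ctsb, Ctsz and Lamp1 were also lost when libraries were scaled by size alone (adjusted p = 0.0900, 0.101 and 0.166), which moved the median of all genes from 0.02 to −0.14.

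**Figure D4:**
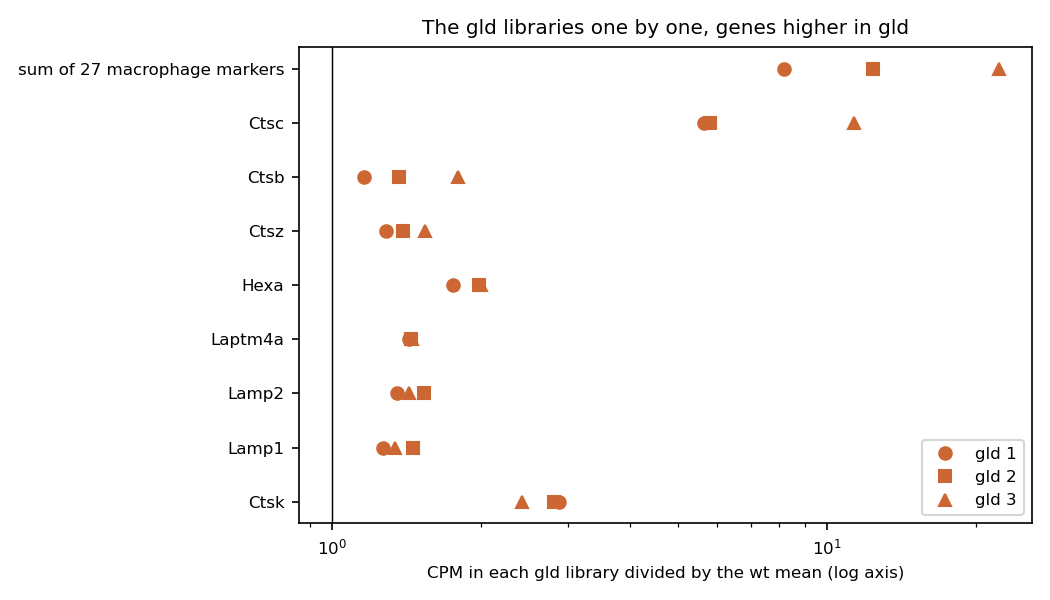
CPM of each gld library divided by the wt mean (log axis) for the 8 genes that rose and for the sum of 27 macrophage markers. As in the marker sum, gld 3 stands highest in Ctsc, Ctsb, Ctsz, Hexa and Laptm4a, by a wide gap in Ctsc and Ctsb, and in Ctsk it stands lowest.

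Reads from an overlapping gene on the other strand cannot be told apart where the counting strand is not stated. Among called genes this touches Ctsb, Ctsz and Lamp1. Fdft1 and Nelfcd, which overlap the ends of Ctsb and Ctsz, were listed at 0 in all libraries. How reads were counted was not given, so these 0 values do not show that no reads came from Fdft1 or Nelfcd. Grtp1, which overlaps the end of Lamp1, had a log2 fold change of −0.25 (edgeR adjusted p = 0.831).

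A wider list of 175 other lysosome and autophagy genes, of which 85 could be tested, was described by role in the same way. In it 12 genes rose, 4 fell and 69 did not pass, beside the background of 9.74% and 7.69%. Of 41 with at least 1000 counts, 11 rose and 4 fell, beside 15.2% higher and 14.4% lower among all tested genes of that depth. Of 7 tested proteases and inhibitors 3 rose, with a median log2 fold change of 0.52, and of 20 tested hydrolases and cofactors 4 rose, with a median of 0.46, beside 0.02 over all tested genes. None of these fell in edgeR, but Cstb (cystatin B) had an unadjusted p under 0.05 there and was lower by DESeq2 (adjusted p = 0.0323) and limma-voom (0.0451). Cst3, the secreted cathepsin inhibitor cystatin C, stood at 2246, 1882 and 2043 CPM in wt and at 3433, 3649 and 3423 CPM in gld, and rose by 0.77 ± 0.09 (SE; edgeR adjusted p = 3.30e-05). The lysosomal alpha-mannosidase gene Man2b1 stood at 41.4, 42.1 and 34.7 CPM in wt and at 99.03, 117 and 129 CPM in gld, and rose by 1.55 ± 0.20 (SE; adjusted p = 5.90e-05). Every gld library lay above every wt library in both. Smpdl3a, a phosphodiesterase, rose by 1.48 and Ifi30, a lysosomal thiol reductase of antigen-presenting cells, by 1.35. The heparan sulfate sulfatase gene Ids rose by 0.81, the ganglioside activator Gm2a by 0.81 and the carboxypeptidase gene Scpep1 by 0.50 (largest edgeR adjusted p = 0.00927). Gm2a was not past the threshold without gld 3 (0.0549), nor Scpep1 without wt 1 (0.053), wt 3 (0.0549) or gld 3 (0.0549).

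Membrane and sorting genes went both ways in that list, and 7 of 10 did not pass. Laptm5 and Cd68, which are also macrophage markers, rose, with 2313 of 2321 and 184 of 185 counts falling in the gld libraries. For Cd68 the ratio of pooled counts, scaled for depth, was 124 (95% counting interval 22 to 4929), and with limma-voom its adjusted p was 0.0685. Igf2r, the receptor that sorts hydrolases to the lysosome, stood at 423, 503 and 401 CPM in wt and at 345, 299 and 271 CPM in gld, and fell by 0.54 ± 0.14 (SE; edgeR adjusted p = 0.0119). None of 7 further V-ATPase genes passed in the main edgeR fit, with adjusted p of at least 0.117 and 1 unadjusted p under 0.05 (Atp6v1g1). None passed in DESeq2 or limma-voom. With libraries scaled by size alone, Atp6v1g1 was lower in gld in edgeR (log2 fold change −0.48, adjusted p = 0.0190). Of 11 regulators 2 rose, Rraga (a GTPase that brings mTORC1 to the lysosome) by 0.61 and the transcription factor gene Foxo1 by 0.94, the latter not without wt 3 (adjusted p = 0.0557).

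Of 30 further autophagy genes 1 rose and 3 fell, beside the same background over all tested genes. Vmp1, a lipid scramblase of the endoplasmic reticulum needed for autophagosome growth, stood at 525, 508 and 540 CPM in wt and at 316, 305 and 345 CPM in gld. All gld libraries lay below wt, and it fell by 0.70 ± 0.11 (SE; edgeR adjusted p = 0.000455). Mir21a overlaps the end of Vmp1 on the same strand, and its part in these counts was not tested. Atg101, a subunit of the ULK1 complex, fell by 0.60 and Wipi2, a phosphoinositide binder that recruits the lipidation machinery and is a gene picked with its value known, by 0.56. Fundc1, a mitophagy receptor, rose by 0.85. These 3 calls were each lost when some single libraries were left out, with adjusted p up to 0.107, 0.133 and 0.140.

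**Figure D5:**
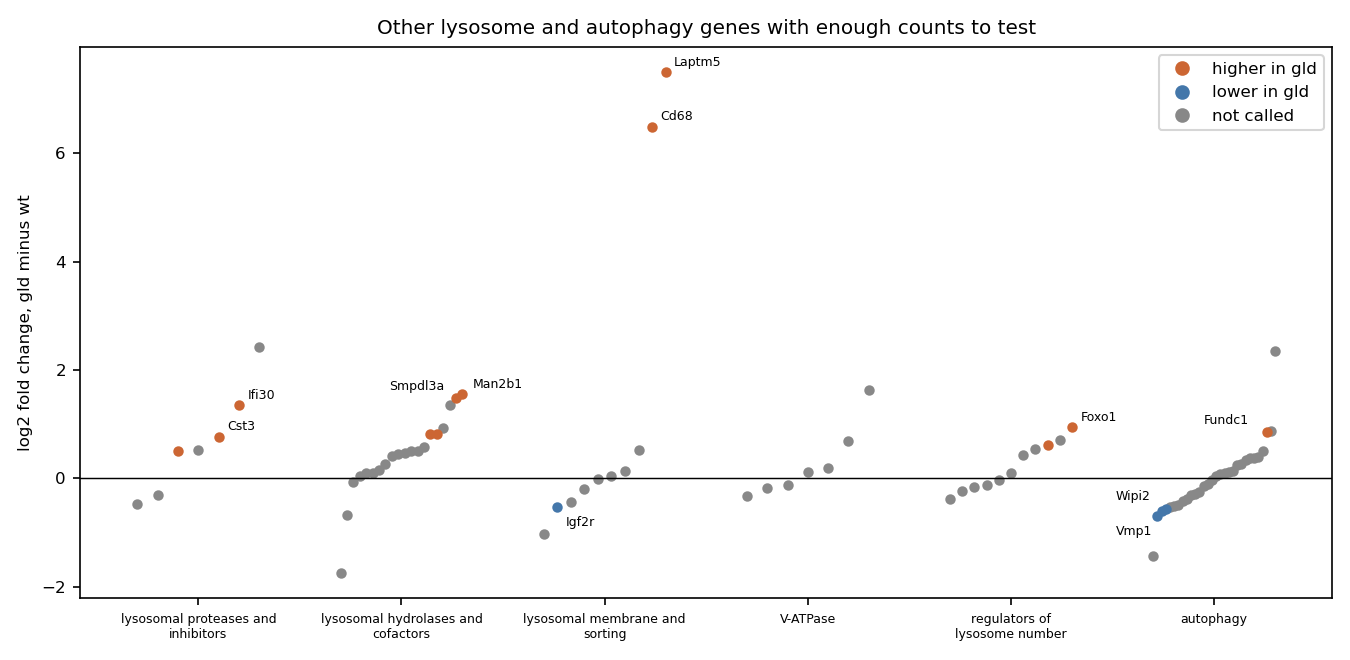
Log2 fold change (gld minus wt) of each of the 85 tested genes of the wider list, by role. Genes called higher are orange, lower blue, others grey, and Laptm5 and Cd68, also macrophage markers, lie far above the rest.

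The 37 genes together made up 0.735% of the counts of a wt library (SD 0.0134, n = 3) and 0.886% of a gld library (SD 0.0403, n = 3). The summed cathepsin level averaged 1483 CPM for wt (SD 72.6) and 2457 CPM for gld (SD 393), and that of the membrane proteins 3965 ± 174 and 5676 ± 127 CPM. Most of each sum came from 1 gene. Ctsb held 1069 CPM of the cathepsin sum in wt and 1536 in gld, and Laptm4a 2782 and 4004 CPM of the membrane sum. The summed autophagy genes stood at 938 ± 65.3 CPM in wt and 474 ± 44.6 CPM in gld, with Gabarapl1 holding most of it in wt. In each of these sums the groups did not overlap. The V-ATPase sum, at 305 ± 42.5 and 286 ± 21.4 CPM, overlapped.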

How the data were processed

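Poly(A) RNA 3′ ends were sequenced as single reads of 75 nt in 6 libraries. The authors deposited whole-number counts per gene, not normalized. The series' design text names Cutadapt, STAR, FastQC, RSeQC and MultiQC, and the submitters' processing notes name Trim Galore, DESeq2 and mm10 with no version. Which program counted the reads, on which strand and with which annotation, was not given in these sources. Of 57180 gene identifiers, 51883 were matched to GENCODE M21 (GRCm38), and 1 row without an identifier was left out.

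Counts were filtered with filterByExpr (minimum count 10, total 15), scaled by TMM and tested for gld against wt with edgeR 4.0.16 (R 4.3.3) quasi-likelihood tests, Benjamini-Hochberg adjusted over all 8692 tested genes, at 0.05. CPM values use TMM-scaled library sizes. Alternatives used DESeq2 1.42.0, limma 3.58.1, other scalings and filters, a replicate block, and each library left out. Counts of 8692 genes were simulated for this comparison. Of 50 genes at each fold, 6% were recovered at 1.5-fold, 44% at 2-fold, 60% at 4-fold and 80% at 8-fold. The simulation gave 97 calls against 1515 in the data, so its adjusted threshold was stricter. Its changed genes were drawn at any depth, whereas 16 of the 19 tested members had at least 1000 counts. These percentages are therefore not the recovery of the members.

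The members and lists were chosen with earlier results of these data known. All members are accounted for. From the wider lists (178 symbols, 3 of them older names not found) the 12 called genes with the smallest adjusted p and up to 3 per list were to be named. Intervals cover counting error or, for fold changes, the spread between libraries.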

Additional observations from a re-analysis of the deposited data

How the results depend on the processing

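Of the 10 called genes Ctsc, Ctsk, Lamp2, Laptm4a, Hexa and Gabarapl1 kept direction and call in every alternative, and Ctsb, Ctsz, Lamp1 and Atg12 kept direction only. Scaling by library size alone left 5 genes higher and raised the wider list's lower genes from 4 to 9. With single libraries left out, 5 to 7 of the 37 genes were higher (5 without gld 3) and 1 to 2 lower, and 2 to 3 genes of the wider list were lower (2 without wt 1 or wt 2). The median log2 fold change of tested members was 0.42 with limma-voom, 0.32 with the replicate block, and −0.084 to 0.37 with single libraries left out. Outside the 20 most abundant genes the 37 genes held 0.902% of counts in wt and 1.22% in gld. The cause of these shifts was not tested. Replicate numbers did not pair the samples (correlations of deviations −0.0231, −0.015 and −0.0227). With the replicate block 8 genes were higher and 1 lower, Atg12 losing its call (adjusted p = 0.0508), and over all tested genes 760 were higher and 599 lower, against 847 and 668. Ctsa, Gabarap and Atg3 rest on 62 to 139 counts over the 6 libraries, which leaves wide intervals. Of the 18 untested genes 15 have a shared 3′ end, and why their counts are low was not tested.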
